A study of Mus musculus with 6 samples.

Results

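The subject here is the front part of the mitochondrial respiratory chain, complexes I to III, in intestinal epithelial cells of C57BL/6 mice. Its members were every gene whose annotated symbol starts with Nduf or Uqcr, together with Sdha, Sdhb, Sdhc and Sdhd. That rule found 56 genes among the 18193 measured. Each gene was read by its brightest probe set that is paired with that gene alone, judged by the mean of the 6 arrays. Ndufa11, Ndufs6, Ndufb4b and Ndufb4c had no such probe set, since theirs are shared with other genes.

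The caspase-8 deficient animals (3 mice) carried the floxed casp8 gene and a villin-driven Cre transgene. The floxed controls (3 mice) carried the floxed gene without Cre. The villin promoter is active in intestinal epithelium, so other cells in a preparation keep the gene. Each mouse gave 1 Affymetrix array, the labels give no age or sex, and p-values measure the spread between these arrays. Values are log2 levels made with RMA, a method that corrects background, aligns the arrays and summarises the probes of each probe set, and a difference is deficient minus control on that scale. A log2 difference of 1 is a 2-fold change.

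Complex I takes electrons from NADH, complex II takes them from succinate, and both pass them to ubiquinone in the inner mitochondrial membrane. Complex III hands them on to cytochrome c, and complexes I and III pump protons as they work. Most subunits are encoded in the nucleus, and the remaining ones, encoded in mitochondrial DNA, lie outside the rule. Enterocytes, the absorptive cells that make up most of the villus, hold many mitochondria and spend much of the resulting ATP on nutrient uptake.

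The preparations carried epithelial transcripts. Levels of 10 intestinal epithelial markers averaged 12.11 to 12.19 on deficient arrays and 12.09 to 12.25 on control arrays, with Epcam, Vil1 and Krt8 among them. Deficient replicate 1 stood apart. Its 9 endothelial markers averaged 6.53, against 4.10 and 4.12 on the other deficient arrays and 3.88 to 4.29 on the controls, and its 11 kidney tubule markers averaged 6.60, against 4.57 and 4.70 on the other deficient arrays and 4.59 to 4.76 on the controls. For Gapdh, the array carries probe sets at both ends of the transcript, and the excess of the 3′ over the 5′ signal grows as RNA degrades. This excess was 0.21 to 0.29 on deficient arrays, and 0.68, 0.93 and 0.22 on control replicates 1, 2 and 3. Results are therefore also given without these arrays, and with the Gapdh excess as a covariate. That excess varied mainly among the 3 controls, so the adjustment rests mostly on them. It is also partly tied to the group and cannot be fully separated from it. Casp8, the targeted gene, has 1 single-gene probe set, which read 9.27, 9.56 and 10.40 on deficient arrays and 10.53, 9.74 and 10.24 on controls. The groups overlapped, with deficient replicate 3 inside the control range (limma adjusted p = 0.518). Where this probe set lies relative to the deleted part was not given in the sources used here, so it does not check the labels. The 6 Paneth cell markers averaged 9.84 on deficient replicate 3, below all 3 controls, as on the other deficient arrays.

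The transcripts of complexes I to III differed little between caspase-8 deficient and control epithelium. Of the 56 members, 0 passed an adjusted p of 0.05 in either direction (limma, Benjamini-Hochberg over 18193 genes, n = 3 per group), where 0.775% of all genes passed. The lowest adjusted p among them was 0.34, for Ndufa4l2, and 0 members had an unadjusted p under 0.05, against 16.6% of all genes. The median difference of the members was 0.04, beside 0.02 for all genes, and 37 of 56 differences were positive, beside 53.9% of all genes. The members ran from −0.24 for Ndufs7 to 0.38 for Ndufb6.

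The size of what could have been missed is bounded by the intervals. The 95% confidence interval of the difference, taken for each gene alone, lay within a 2-fold change either way for all 56 members and within a 1.5-fold change for 45. The lowest bound was −0.59, for Ndufs7, and the highest was 0.89, for Ndufb2. Without control replicate 3, 51 of 56 stayed within 2-fold. The median size of the difference, taken without its sign, was 0.11 among the members and 0.16 among all genes. In 2 of the 56 members the 3 deficient arrays did not overlap the 3 controls, both higher, where 22.7% of all genes did not overlap.

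**Figure D1:**
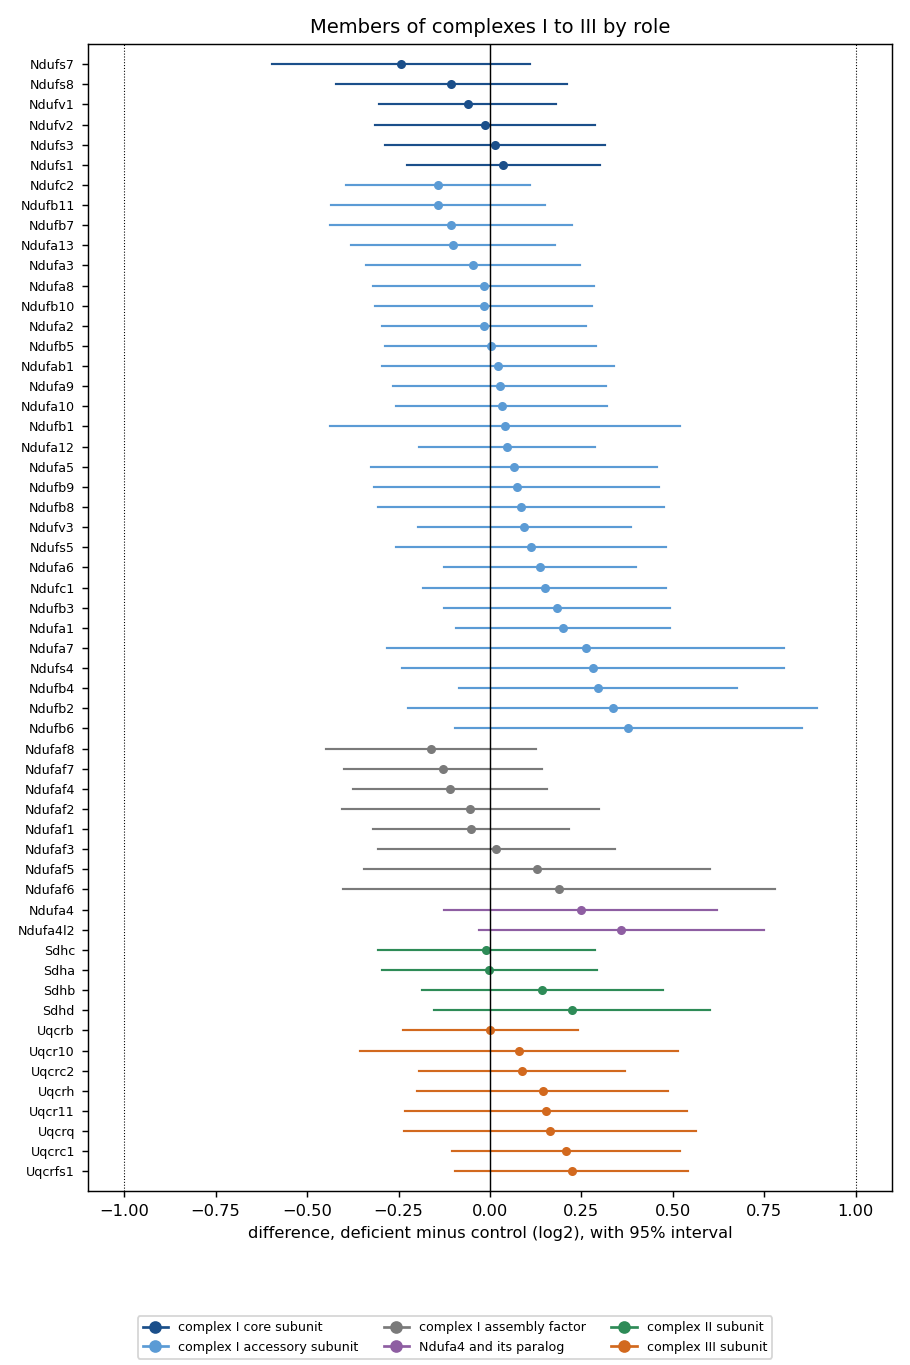
Log2 difference (deficient minus control, x axis) of the 56 members, 1 per row and coloured by role, with the 95% confidence interval as a bar; dotted lines mark a 2-fold change either way. The intervals of all 56 include 0 and none reaches the dotted lines, the highest upper bound being 0.89 for Ndufb2.

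Promoters of respiratory genes are known for sites of the factors NRF1, GABP of the ETS family, YY1 and ERR alpha. Windows of 300 bases, from 250 before to 50 after the annotated start, were at hand for 47 of the 56 members (49 windows, RefSeq, GRCm38.p6). The NRF1 motif (GCGCA, any base, GCGC) stood in 11 of 49 windows (22.4%), against 4.6% of 32851 windows of all genes. The ETS letters CCGGAAG stood in 10 (20.4%, against 8.86%), the YY1 letters AAGATGGC in 7 (14.3%, against 2.75%) and the ERR letters AAGGTCA in 4 (8.16%, against 4.72%). Both strands were searched, base composition was not matched (58.3% G and C in the members' windows, 53.8% in all), and a match is not shown to be a bound site.

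The windows below belong to the 2 members whose groups did not overlap, those with the highest and lowest difference, and Sdhd, which holds 3 of the 4 motifs. They are printed 5′ to 3′ along the gene, and capitals mark the motifs on either strand. Ndufa6 (chr15:82354242-82354541, minus strand) holds the NRF1 letters 24 bases after the start. Ndufb6 (chr4:40279372-40279671, minus strand) holds the ETS letters 232 bases before it. Ndufs7 (chr10:80249199-80249498, plus strand) holds the YY1 letters 25 bases after it. Sdhd (chr9:50603800-50604099, minus strand) holds NRF1 and ETS letters 79 and 46 bases before its start and ERR letters 37 bases after it. Uqcrfs1 (chr13:30545267-30545566, minus strand) holds none of the 4 in this window.
Uqcrfs1: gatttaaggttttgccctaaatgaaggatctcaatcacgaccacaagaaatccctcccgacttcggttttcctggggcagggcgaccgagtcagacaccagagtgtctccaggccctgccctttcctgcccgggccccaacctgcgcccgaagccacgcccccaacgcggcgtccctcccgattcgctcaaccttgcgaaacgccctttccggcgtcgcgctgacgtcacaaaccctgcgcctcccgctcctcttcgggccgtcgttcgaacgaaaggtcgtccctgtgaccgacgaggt
Ndufa6: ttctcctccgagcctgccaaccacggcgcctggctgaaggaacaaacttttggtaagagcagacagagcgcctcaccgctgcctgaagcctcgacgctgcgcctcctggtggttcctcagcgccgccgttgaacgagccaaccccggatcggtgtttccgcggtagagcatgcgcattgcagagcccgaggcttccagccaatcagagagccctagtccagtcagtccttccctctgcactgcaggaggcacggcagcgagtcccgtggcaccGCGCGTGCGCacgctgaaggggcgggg
Ndufb6: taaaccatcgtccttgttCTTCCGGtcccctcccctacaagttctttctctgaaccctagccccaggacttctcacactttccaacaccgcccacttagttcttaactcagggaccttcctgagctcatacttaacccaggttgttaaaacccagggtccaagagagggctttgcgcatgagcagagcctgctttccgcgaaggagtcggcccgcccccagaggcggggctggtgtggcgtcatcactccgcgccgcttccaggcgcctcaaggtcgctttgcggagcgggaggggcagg
Ndufs7: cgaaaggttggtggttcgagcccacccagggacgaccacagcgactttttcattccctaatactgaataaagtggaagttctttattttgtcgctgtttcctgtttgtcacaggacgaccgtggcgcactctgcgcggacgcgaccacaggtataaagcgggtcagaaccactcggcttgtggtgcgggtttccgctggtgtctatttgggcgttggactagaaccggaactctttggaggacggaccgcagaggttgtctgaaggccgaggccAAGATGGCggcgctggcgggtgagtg
Sdhd: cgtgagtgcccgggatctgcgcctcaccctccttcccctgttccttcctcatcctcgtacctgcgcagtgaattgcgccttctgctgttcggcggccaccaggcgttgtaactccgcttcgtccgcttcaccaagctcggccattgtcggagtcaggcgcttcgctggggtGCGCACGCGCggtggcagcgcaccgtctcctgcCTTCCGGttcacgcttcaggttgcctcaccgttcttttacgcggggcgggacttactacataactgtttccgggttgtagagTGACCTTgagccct

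The core subunits of complex I encoded in the nucleus form the part that takes electrons from NADH, and most of them hold its flavin or iron-sulfur clusters. Of the 6 measured, 0 passed, with a median of −0.04, and 4 had a negative difference. The median was 0.02 without deficient replicate 2 and −0.11 without deficient replicate 3. It also turned on the choice of probe set. With the mean over each gene's probe sets it was 0.01, and with those ending in x_at or s_at avoided 0.0001. Ndufv1, the subunit that binds NADH and the flavin, read 11.13, 11.12 and 11.20 on the deficient arrays and 11.22, 11.26 and 11.15 on the controls. The groups overlapped, and the difference of −0.06 (SE 0.10, limma adjusted p = 0.805) had an interval from −0.30 to 0.18. Ndufv2, its iron-sulfur partner, read 11.37, 11.28 and 11.66 in deficient cells and 11.47, 11.38 and 11.50 in controls.

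Ndufs1, the largest iron-sulfur subunit, read 9.98, 9.82 and 9.92 in deficient cells and 9.85, 9.98 and 9.78 in controls. Ndufs3, a subunit of the arm that projects into the matrix, read 10.61, 10.46 and 10.82 in deficient cells and 10.59, 10.71 and 10.54 in controls. The deficient and control arrays of Ndufv2, Ndufs1 and Ndufs3 were interleaved, with differences of −0.01, 0.04 and 0.01. Ndufs8, another iron-sulfur subunit, read 11.24, 11.17 and 11.58 in deficient cells and 11.39, 11.52 and 11.40 in controls. Differences over its 6 probe sets ran from −0.11, on the one used, to 0.15.

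Ndufs7, the iron-sulfur subunit next to the ubiquinone site, had the lowest difference of the members. It read 11.11, 11.01 and 11.29 in deficient cells and 11.34, 11.64 and 11.16 in controls. Control replicate 2 was the highest array, and control replicate 3 lay inside the deficient range. The means were 11.14 ± 0.14 in deficient cells and 11.38 ± 0.24 in controls (SD, n = 3 each), and the difference was −0.24 (SE 0.15, interval −0.59 to 0.11) with a limma adjusted p of 0.464. Its other probe set stood at 0.02.

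**Figure D2:**
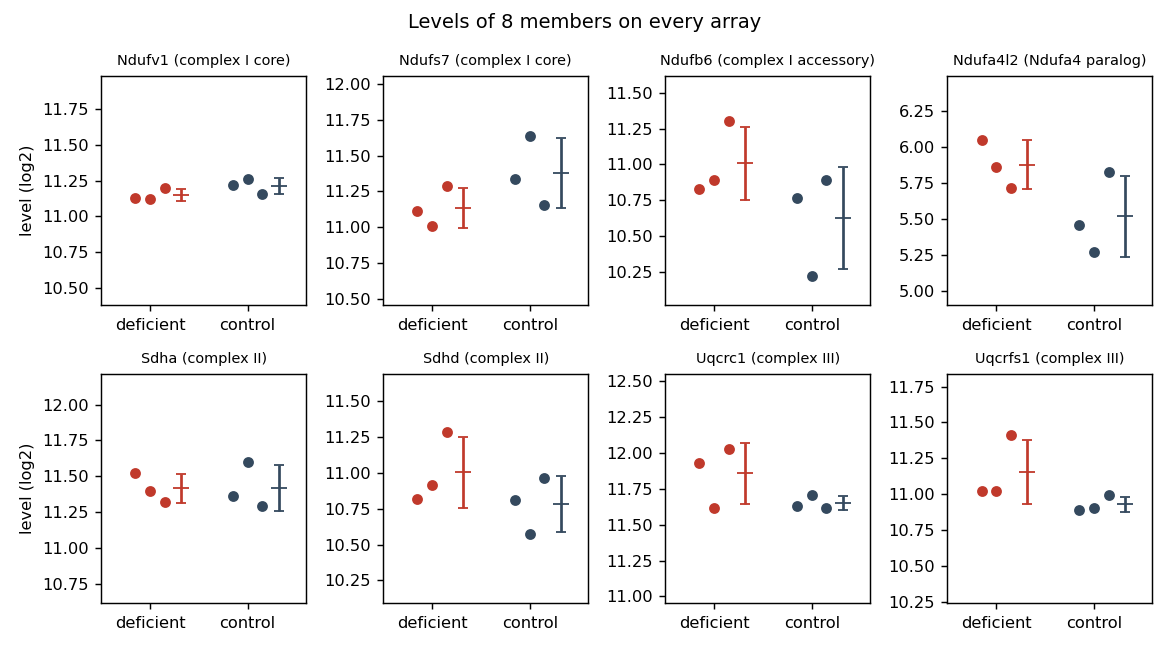
Log2 levels of 8 members on the 3 deficient (left, red) and 3 control arrays (right, dark), with replicates 1 to 3 from left to right and the mean ± SD beside them; each panel spans 1.6 log2 units. The groups overlap in all panels but that of Uqcrfs1, where the deficient arrays read 11.02 to 11.41 and the controls 10.89 to 10.99.

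The accessory subunits surround the core of complex I and are needed for its assembly and stability. Of 28 measured, 0 passed, 20 had a positive difference and the median was 0.06, or −0.06 without deficient replicate 3. Ndufb6, an accessory subunit of the membrane arm, had the highest difference of all members. It read 10.83, 10.89 and 11.30 in deficient cells and 10.77, 10.22 and 10.89 in controls. Control replicate 2 was the lowest array by a wide margin and deficient replicate 3 the highest. The means were 11.01 ± 0.26 in deficient cells and 10.63 ± 0.36 in controls (SD, n = 3 each), and the difference was 0.38 (SE 0.21, interval −0.10 to 0.85) with a limma adjusted p of 0.403.

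Ndufb2, also of the membrane arm, read 10.42, 10.48 and 11.02 in deficient cells and 10.48, 9.82 and 10.61 in controls, a difference of 0.34. Ndufs4, an accessory subunit of the matrix arm whose loss causes Leigh syndrome in humans, read 9.40, 9.38 and 9.98 in deficient cells and 9.48, 8.89 and 9.54 in controls, a difference of 0.28. In both genes control replicate 2 was again the lowest array, and the other controls lay inside the deficient range. Ndufa7, at 0.26, had the same 2 extremes, with 11.01 on deficient replicate 3 and 9.95 on control replicate 2.

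At the low end, Ndufc2 read 11.49, 11.53 and 11.66 in deficient cells and 11.75, 11.64 and 11.70 in controls. Ndufb11, an X-linked subunit of the membrane arm, read 11.57, 11.39 and 11.64 in deficient cells and 11.71, 11.80 and 11.53 in controls. Both differed by −0.14 and their groups overlapped. Ndufa6, by contrast, did not overlap: it read 11.09, 11.18 and 11.35 in deficient cells, against 11.06, 11.07 and 11.09 in controls. Its difference of 0.14 (SE 0.11) did not pass (limma adjusted p = 0.584), and deficient replicate 1 exceeded the highest control by less than 0.1. The accessory subunits not described with array values lay between −0.11 for Ndufb7 and 0.20 for Ndufa1. Ndufab1, which doubles as the mitochondrial acyl carrier protein, stood at 0.02 and Ndufa13, also known as the cell death regulator GRIM-19, at −0.10.

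Ndufb4 is a weak measurement. Its only single-gene probe set read 3.20, 3.51 and 3.17 in deficient cells and 2.78, 3.28 and 2.94 in controls, at the dim end where RMA understates differences. A pair of bright probe sets shared by Ndufb4, Ndufb4b and Ndufb4c read 10.15 ± 0.30 and 10.35 ± 0.31 in deficient cells and 9.99 ± 0.51 and 10.20 ± 0.59 in controls (SD, n = 3 each). These differed by 0.16 and 0.15, and their lowest array was control replicate 2, at 9.41 and 9.53. A probe set shared by Ndufs6 and Ndufs6b differed by less than 0.1, and the bright one shared by Ndufa11 and Ndufa11b by 0.13.

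The assembly factors help build complex I without staying in it. Of 8 measured, 0 passed, 5 were negative and the median was −0.05, or 0.01 without control replicate 1 and −0.12 without control replicate 2. Ndufaf8 read 9.88, 9.86 and 9.98 in deficient cells and 10.15, 10.18 and 9.87 in controls, a difference of −0.16 (SE 0.12). Ndufaf7, a methyltransferase of the mitochondrial matrix, read 6.76, 6.77 and 6.93 in deficient cells and 7.07, 6.85 and 6.92 in controls, a difference of −0.13. In both, deficient and control arrays overlapped. Ndufaf6 had the highest difference of the group, 0.19, and the largest spread, with 7.52 on deficient replicate 3 and 6.46 on control replicate 2.

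Ndufa4 was first described as a subunit of complex I and is now assigned to cytochrome c oxidase, complex IV. It read 11.71, 11.73 and 11.99 in deficient cells and 11.78, 11.27 and 11.65 in controls, a difference of 0.25 (SE 0.16, limma adjusted p = 0.482). Its paralog Ndufa4l2 is known as a gene induced by hypoxia through HIF-1. Ndufa4l2 read 6.05, 5.86 and 5.71 in deficient cells and 5.46, 5.27 and 5.83 in controls. Control replicate 3 overlapped the deficient arrays, and the difference was 0.36 (SE 0.17, interval −0.03 to 0.75) with a limma adjusted p of 0.34. Without control replicate 3 it was 0.51, and the lowest adjusted p of any member was then 0.178. With the Gapdh excess as a covariate it was 0.09, and without control replicates 1 and 2 it was 0.05.

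Complex II, succinate dehydrogenase, is the only one of these complexes that is also an enzyme of the tricarboxylic acid cycle. Of its 4 subunits, 0 passed. Sdha, the flavoprotein that oxidises succinate, read 11.52, 11.40 and 11.32 in deficient cells and 11.36, 11.60 and 11.29 in controls, and both groups averaged 11.42. Sdhb, the iron-sulfur subunit, read 11.50, 11.50 and 11.90 in deficient cells and 11.49, 11.41 and 11.57 in controls, a difference of 0.14. In Sdhb a single deficient array lay above the controls.

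The membrane anchors of complex II are Sdhc and Sdhd. Sdhc read 9.93, 10.03 and 10.31 in deficient cells and 10.13, 10.10 and 10.08 in controls. Sdhd read 10.81, 10.92 and 11.28 in deficient cells and 10.81, 10.57 and 10.96 in controls, a difference of 0.22 (SE 0.16, limma adjusted p = 0.525). The arrays overlapped in both genes, and deficient replicate 3 was the highest. Sdha was the one subunit of complex II for which deficient replicate 3 was not the highest array.

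All 8 measured subunits of complex III had a positive difference, from 0.0013 to 0.22 with a median of 0.15, and 0 passed. Uqcrfs1, the Rieske iron-sulfur protein that takes electrons from ubiquinol, read 11.02, 11.02 and 11.41 in deficient cells and 10.89, 10.91 and 10.99 in controls. All 3 deficient arrays lay above the controls, those of replicates 1 and 2 by little. The means were 11.15 ± 0.22 in deficient cells and 10.93 ± 0.05 in controls (SD, n = 3 each), and the difference was 0.22 (SE 0.14, interval −0.09 to 0.54) with a limma adjusted p of 0.455. Uqcrc1, a core protein of the matrix side, read 11.93, 11.62 and 12.03 in deficient cells and 11.63, 11.71 and 11.62 in controls, a difference of 0.21. Uqcrc2, the other core protein, read 11.78, 11.85 and 12.09 in deficient cells and 11.85, 11.76 and 11.85 in controls, a difference of 0.09.

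On the probe sets used, the smaller subunits of complex III were no further apart. Uqcrb, a ubiquinone-binding subunit, averaged 13.24 ± 0.05 in deficient cells and 13.24 ± 0.03 in controls (SD, n = 3 each), the smallest difference of the complex, while its second probe set stood at 0.18. Uqcrq, Uqcr11 and the hinge protein Uqcrh stood at 0.16, 0.15 and 0.14 and Uqcr10 at 0.08. The other probe sets of Uqcr10 stood at 0.22 and 0.46. On all 8 subunits deficient replicate 3 was the highest of the 6 arrays, and control replicate 2 was the lowest on 5. Among single arrays left out, the common sign depended most on deficient replicate 3. Without it the median was 0.01 and 5 of 8 were positive. Without control replicate 2 the median was 0.04 with 7 of 8. Leaving out deficient replicate 2 or control replicate 1 also gave 7 of 8, with medians of 0.23 and 0.20. With the Gapdh excess as a covariate it was 0.04 with 6 of 8, and after repeated quantile normalisation 0.09 with 7 of 8.

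Most members were highest on the same array. Deficient replicate 3 was the highest of the 6 arrays for 40 of 56 members (71.4%), against 20.3% of all genes and 31.8% of the 1820 genes with the highest mean level. Control replicate 2 was the lowest for 22 members (39.3%), against 25.0% of all genes and 31.2% of those 1820. The median member lay 0.24 above the control mean on deficient replicate 3, and at −0.02 and −0.05 on deficient replicates 1 and 2. On control replicates 1, 2 and 3 it lay at 0.03, −0.06 and 0.01. The corresponding medians of all genes lay between −0.01 and 0.01 on the 6 arrays.

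The positive tilt of the members depended on that array, and on other settings too. Without deficient replicate 3 the members' median was −0.05 and 24 of 56 were positive, and 0 passed. Without control replicate 2 it was 0.01 with 30 of 56 positive, and after repeated quantile normalisation 0.01 with 29 of 56. Without deficient replicate 1, the array with endothelial and kidney markers, the median was 0.11 and again 0 passed. Without control replicates 1 and 2, which had the high Gapdh excess, it was 0.04, and with that excess as a covariate it was 0.01. In both settings 0 members passed, and 38 and 32 of 56 were positive.

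**Figure D3:**
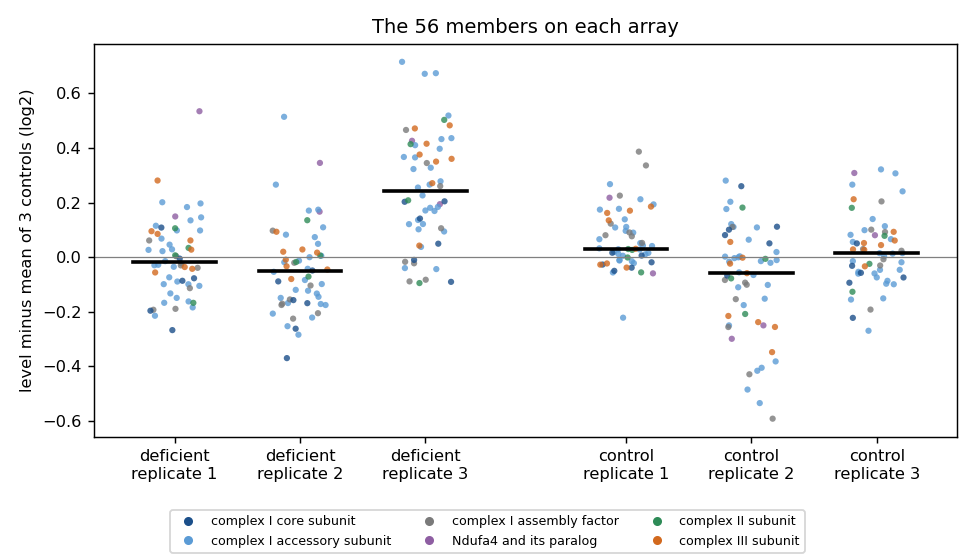
Level of each of the 56 members on the 3 deficient and 3 control arrays, as the log2 distance from that gene's mean over the controls; points are genes coloured by role, and bars are medians. The median on deficient replicate 3 is 0.24, against −0.02 and −0.05 on the other deficient arrays and −0.06 to 0.03 on the controls, and the points of control replicate 2 trail furthest down.

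Control replicate 2 was the lowest of the 3 controls in 30 members and the highest in 15, Ndufs7 and Sdha among the 15. It lay over 0.3 below both other controls in 11 members, among them Ndufaf6, Ndufa7, Ndufb2, Ndufs4 and Ndufb6, with gaps of 0.54 to 0.80, and over 0.3 above both in 1. Over all genes such a gap below occurred in 9.82%. Of the 5 members with the highest differences, Ndufb6, Ndufb2 and Ndufs4 were among those 11, whereas for Ndufb4 this array was the highest control. Without control replicate 2 the members ran from −0.18 for Ndufaf2 to 0.44 for Ndufb4, and 30 of 56 were positive.

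Other probe sets of the same genes gave differences of like size, with exceptions such as Ndufs7, Ndufc2 and Ndufaf8. Ndufc2 stood at −0.14 on the probe set used, and at 0.01 and 0.05 on others above the median level of all genes. Ndufaf8 stood at −0.16 on the one used and at 0.08 on the other. Of the 56 members, 30 had several single-gene probe sets, 113 in all with those of the other 26. The 57 probe sets not used lay between −0.25 and 0.46, with a median of 0.06. In the 28 members with more than 1 probe set above the median level of all genes, differences within a gene spread by a median of 0.08 and at most 0.38, for Uqcr10. The 5 probe sets of Ndufa7 ran from 0.24 to 0.31.

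Outside the rule, 0 genes passed in any of 7 further mitochondrial lists. Among 7 complex III genes outside the rule the median was −0.06, or 0.02 with the Gapdh covariate. The lowest was Bcs1l, the chaperone that inserts the Rieske protein, which averaged 6.96 ± 0.10 in deficient cells and 7.34 ± 0.14 in controls (SD, n = 3 each). Its groups did not overlap, as for 22.7% of all genes, and the difference of −0.38 (SE 0.12) did not pass (limma adjusted p = 0.192). Uqcc1 and Uqcc3, assembly factors of complex III, stood at −0.17 and −0.08. Among 15 further assembly genes of complexes I and II the median was 0.07, with Tmem126b at 0.39, Sdhaf1 at −0.32 and Sdhaf2 at 0.39. The sign of that median turned, to −0.08 without deficient replicate 3, −0.05 without control replicate 2 and −0.07 with the Gapdh covariate.

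Downstream of complex III, 18 of 20 genes of complex IV and cytochrome c had a positive difference, with a median of 0.13, or 0.05 without deficient replicate 3. Cox7a1, an isoform best known from heart and muscle, read 10.48, 10.40 and 10.97 in deficient cells and 10.09, 9.35 and 10.01 in controls. The groups did not overlap, and the difference of 0.80 (SE 0.23) did not pass (limma adjusted p = 0.163). Defining genes of striated muscle differed by −0.13 to 0.18 over 10 markers, with mean levels of 3.83 to 3.93 in deficient cells and 3.74 to 4.02 in controls. Of 11 fibroblast and smooth muscle markers, 7 were positive and 4 negative, from −0.24 to 0.87 for Acta2. Of these 11, 3 did not overlap, all higher, where 22.7% of all genes did not. The cell source of the Cox7a1 signal was not tested. Sco1, a copper chaperone of complex IV, stood at 0.48 (SE 0.12, limma adjusted p = 0.111) and Cox19 at 0.43, both without overlap. Over the list 4 of 20 genes did not overlap, where 22.7% of all genes did not.

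Of 16 ATP synthase genes, 13 were positive, with a median of 0.11. That median was 0.02 without deficient replicate 3, 0.06 without control replicate 2 and 0.05 with the Gapdh covariate. Atp5o, Atp5j and Atp5g2 stood at 0.27, 0.22 and −0.17. Of 14 genes of the tricarboxylic acid cycle, 8 were positive, with a median of 0.07. That median was 0.01 without deficient replicate 3, −0.02 without control replicate 2 and −0.05 with the Gapdh covariate. Mdh2, Sucla2 and the citrate synthase gene Cs stood at 0.23, 0.24 and 0.16. In the ATP synthase list deficient replicate 3 was the highest array for 13 of 16 genes, and in the cycle for 5 of 14.

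Genes of the outer membrane, protein import and mitochondrial chaperones had a median of −0.01 over 16. Vdac2, a channel of the outer membrane, stood at 0.33, Slc25a5, an ADP/ATP carrier, at 0.29 and the import factor Timm44 at −0.26. None of these overlapped between the groups. Over the list 4 of 16 genes did not overlap, where 22.7% of all genes did not. The 13 regulators of mitochondrial biogenesis had a median of −0.19, and 9 were negative. That median was −0.09 without control replicate 2 and 0.01 with the Gapdh covariate. Pprc1, a coactivator related to PGC-1, averaged 7.06 ± 0.29 in deficient cells and 7.65 ± 0.28 in controls (SD, n = 3 each), and the mitochondrial RNA polymerase Polrmt averaged 8.04 ± 0.13 in deficient cells and 8.42 ± 0.16 in controls. Neither passed (limma adjusted p = 0.198 and 0.217). The coactivator Ppargc1a stood at 0.04, and the factors Nrf1, Gabpa, Esrra and Tfam at −0.19, 0.27, 0.16 and −0.21.

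**Figure D4:**
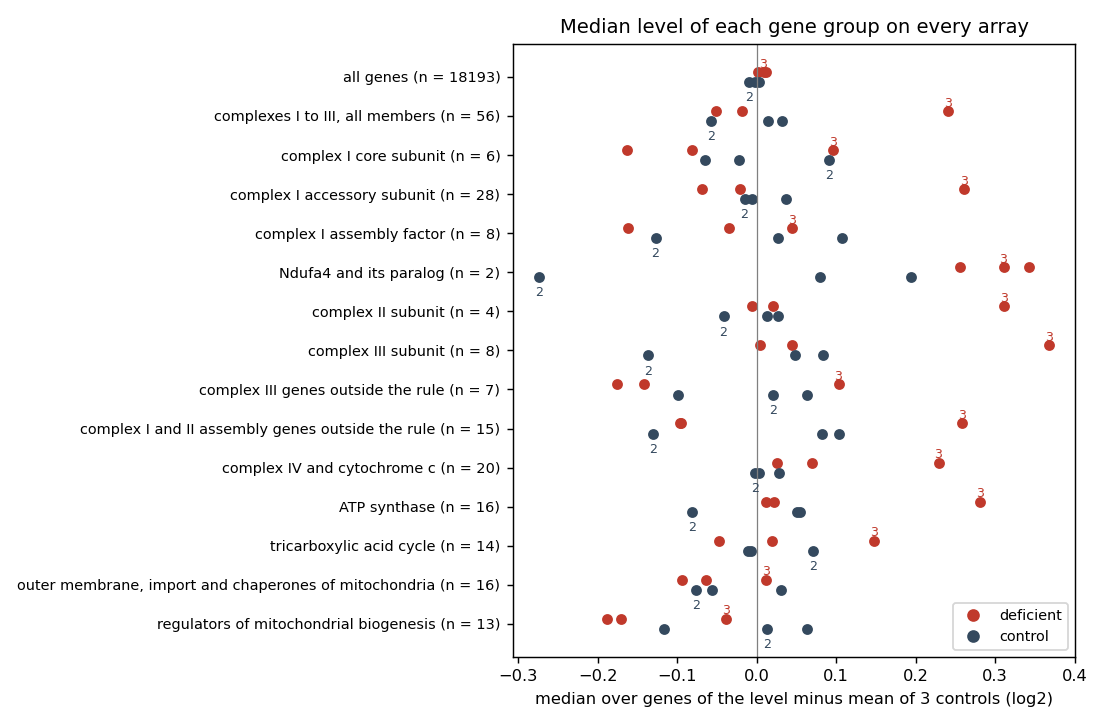
Median over each gene group of the log2 distance from the mean of the controls (x axis), for the deficient (red) and control arrays (dark); the digit 3 marks deficient replicate 3 and the digit 2 control replicate 2. Deficient replicate 3 lies farthest right for complex III (0.37) and near 0 for all genes (0.01).

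Markers of secretory cells differed between the groups. All 6 Paneth cell markers were lower in deficient cells (median −1.97), with mean levels of 9.84 to 10.25 on deficient arrays and 11.85 to 12.25 on controls. Of 8 goblet cell markers, 3 were lower and 0 higher (median −0.78), with mean levels of 11.35 to 11.46 on deficient arrays and 12.07 to 12.21 on controls. Of 9 enterocyte markers, 1 was higher, Rbp2, and 0 lower (median 0.20), with mean levels of 12.92 to 12.96 on deficient arrays and 12.57 to 12.73 on controls. In such bulk samples fewer cells of a type and less RNA per cell cannot be told apart, and the part of cell makeup in the members' values was not tested. The lists of fibroblast and smooth muscle (11 genes, median 0.15), B and plasma cells (5, −0.83) and T cells (6, −0.16) had 0 genes that passed, and of 7 myeloid genes (median −0.12) only Lyz2 was lower, a close paralog of the Paneth gene Lyz1. The endothelial list (median 0.78) and the kidney tubule list (median 0.45) also had 0 genes that passed.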

How the data were processed

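Biotin-labelled cRNA from total RNA of 6 preparations was measured on an Affymetrix 3′ array, per the labels' protocols. The authors deposited log2 values made with RMA, per the submitters' processing notes, with settings and version not given in the sources used here. They ran from 1.13 to 14.1, with array medians of 4.85 to 4.91. No detection calls were used, and precision is set by the number of arrays.

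Of 45101 probe sets, 34945 were paired with 1 gene by the platform annotation, 932 with several and 9160 with none, beside 64 control probe sets. The brightest single-gene probe set stood for each of 18193 genes. Of the 34945, 34741 were found in the RefSeq table, and 0 were renamed. Groups and replicate numbers came from the titles.

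Deficient minus control was fitted with limma 3.58.1 (lmFit, eBayes, two-sided) in R 4.3.3 and adjusted by Benjamini-Hochberg over all genes, with a threshold of 0.05. This fit was also run on simulated data with independent noise for each gene. Shifts shared by many genes on an array were not simulated. Tables and plots used Python 3.11.15, pandas 2.3.3, numpy 2.4.6 and matplotlib 3.10.9. The members, their roles and the other lists were chosen with earlier results of these data known. Array values are given for core subunits, complex II, Uqcrc1, Uqcrc2, Uqcrfs1, Ndufa4 and its paralog, the dimmest member and the 5 highest and 5 lowest differences; from other lists the 3 genes with the smallest p are named, and regulators freely. Ndufa6, Ndufaf6, Ndufa7 and Uqcrb go beyond this rule and were picked with their values known. Alternatives were a replicate block, a level filter, other choices of probe set, a variance trend, median centring, repeated quantile normalisation, leaving out arrays and the Gapdh 3′ excess as a covariate.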

Additional observations from a re-analysis of the deposited data

How the results depend on the processing

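Under each of 15 alternatives 0 members passed (limma), and their median difference stayed between −0.05 (without deficient replicate 3, the only alternative in which it was negative) and 0.13 (without deficient replicate 2). Over 838 member differences recomputed, 105 changed sign and 0 were called. The replicate block, the level filter and the variance trend leave a gene's difference as it is, so they could not change its sign. Throughout, 21 members kept their sign, 16 of them positive, such as Uqcrfs1 and Ndufb6. Ndufb2, at 0.34, was the member with the greatest size that changed sign anywhere. Between 51 and 56 members kept an interval within 2-fold when 1 array was left out. The number of genes called in the whole table, 141, was 298 among genes at or above the median level, 252 with a variance trend and robust prior, 36 with the Gapdh excess as covariate, 5 without control replicates 1 and 2, and 18 to 251 when 1 array was left out. The cause of these shifts was not tested. With the replicate number as a block 113 genes and 0 members passed. Same-numbered deficient and control arrays deviated together with correlations of 0.077, 0.105 and −0.007. Deficient replicates 1 and 2 correlated best with the control of their own number, and deficient replicate 3 did not. These correlations were weak and the labels state no pairing, so the main fit did not pair animals by number. Of 195 medians of roles and other lists, 12 moved by more than the spread between arrays, among them the regulators with the Gapdh covariate, at 0.01 against −0.19. The replicate block and the variance trend could not move any of these medians. Dim probe sets, such as that of Ndufb4, limit what these arrays can show.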
